A study of Homo sapiens with 41 samples.

Results

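Heat shock proteins and their co-chaperones were followed in human cancer cells given a drug against their driver kinase. The 90 genes described here carry a symbol of the HSP90A, HSPA, HSPB, HSPH, HSPD or HSPE kind, of the DNAJA, DNAJB or DNAJC kind, or one of BAG1 to BAG6, together with CRYAB and HSF1. They are all such symbols among the 21375 listed in each of 6 tables. HSPA5, HSP90B1, DNAJB9 and DNAJC3, of the endoplasmic reticulum, were set aside. A gene was tested in a table when its mean over the libraries was at least 10 normalised reads. By that rule 59 of the 90 were tested in every table, 19 in some and 12 in none. The 12 were DNAJB3, DNAJB8, DNAJC5B, DNAJC5G, HSPB9 and 7 pseudogene, readthrough or antisense symbols. Just inside that limit lay HSPA7 in UACC62, at 10.1, and just outside it HSPA6 in A375 tumours, at 9.73, and DNAJC27-AS1 in Colo800, at 9.48. Some members reached the limit only through the group in which they were high: HSPB3 and CRYAB in A375 culture and A375 tumours, DNAJC27-AS1, DNAJC28 and HSPA12B in A375 tumours, DNAJB13 in H3122, HSPA6 in A375 culture, UACC62 and H3122, and HSPA7 in UACC62. These had to differ between groups, so their values are given as a description with no p, and they stand within the counts of members passing. Roles were taken from the symbol alone, so HSPA4 and HSPA4L count as HSP70 genes and HSPB11 as a small heat shock protein. By role the 90 symbols were 2 HSP90 genes, 13 HSP70 genes, HSPH1 and the mitochondrial chaperonin pair HSPD1 and HSPE1. Further roles were 9 small heat shock proteins, HSPBAP1, 4 DNAJA, 12 DNAJB, 27 DNAJC and 6 BAG genes. HSF1 and 12 pseudogene, readthrough or antisense symbols made up the rest.

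Heat shock proteins keep other proteins folded. HSP70 proteins bind exposed hydrophobic stretches in a cycle driven by ATP: J-domain proteins (the DNAJ genes) deliver clients and start the ATP hydrolysis, and exchange factors such as HSPH1 and the BAG proteins release them. HSP90 matures a set of clients that includes many kinases, mutant BRAF and ALK fusion proteins among them, and small heat shock proteins hold unfolded proteins without using ATP. HSF1 is the transcription factor that binds heat shock elements in many of these genes.

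The series comprises 41 RNA sequencing libraries in 15 groups and asks how drug-sensitive cells respond to inhibition of their driver kinase and how resistant cells respond to different tumour surroundings. The human melanoma lines A375, UACC62 and Colo800 received vemurafenib, an inhibitor of mutant BRAF. H3122, a human lung adenocarcinoma line, received crizotinib, an inhibitor of ALK. All cultures, vehicle groups included, were kept in medium with 2% serum and gave whole RNA. A375 cultures (n = 3 in each group) had vehicle, or vemurafenib at a dose of 0.1 µM for 6 h or for 48 h. Cultures of the other lines (n = 2 in each group) had vehicle, or drug for 48 h. The dose was 1 µM in Colo800 and UACC62 and 0.3 µM in H3122. The sample labels give no time for vehicle, and in A375 culture 1 vehicle group serves both drug times. Time in culture may therefore differ between groups and cannot be told apart from the drug. A375 tumours grown under the skin of mice had either vehicle or vemurafenib, 75 mg/kg given 10 times (n = 4 in each group). A375R is a vemurafenib-resistant derivative of A375, and its tumours were of A375R cells alone or, as the titles and growth protocol were read, of A375R mixed with A375 cells, each with vehicle or the same 10 doses (n = 3 in each group). Tumour RNA was the fraction pulled down with tagged ribosomes (TRAP). The A375R titles name RPL10a, a ribosomal protein, and that the mixed tumours report the A375R cells is an assumption. The mouse strain, the time of sampling after the last dose, and whether A375R is 1 clone are not given in the labels. Whether replicates are different cultures or mice is not said there either, and the p-values then describe only how these samples vary, perhaps for technical reasons. On a chi-square per degree of freedom, near 1 for read sampling alone, Colo800 replicates scored 1.75 with vehicle and 1.77 with drug. UACC62 scored 1.30 and 12.5, H3122 7.90 and 3.47, and pairs in A375 culture 5.82 to 32.2. The very small p-values in Colo800 rest on that small spread, and whether it is technical was not tested.

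Libraries held 8063754 to 42843612 reads. In A375 tumours, vehicle replicate 3 had 25467614 reads and the other vehicle libraries 8063754 to 9452652. DUSP6 and SPRY4, which report BRAF and ALK signalling, fell after the drug in all 4 lines and in A375 tumours, and neither passed the test in A375R tumours alone. Melanoma markers were present in Colo800 and UACC62 (7 of 7 at 10 or more), whereas in A375 tumours TYR was at 0 in every vehicle library and SOX10 at 908, 916, 574 and 741, against 7647, 6398, 6369 and 6686 after vemurafenib. H3122 had 7 of 8 lung epithelial markers at 10 or more. Of the 7 melanoma markers, MITF and PMEL were also at 10 or more in every H3122 library. SOX10, MLANA, TYR, DCT and S100B were under 10 in each of them, with TYR at 0. Values are read counts divided by a size factor, so a change in the amount of RNA per cell is not visible in them, and in tumours fewer cells of a type and less RNA per cell cannot be told apart. Counts were not stated to use strand, and the near-identical pair HSPA1A and HSPA1B, the HSP90 and HSPA7 pseudogenes with their parents, HSPE1 with its readthrough HSPE1-MOB4, and DNAJC27 with its antisense DNAJC27-AS1 may share reads and are uncertain one by one.

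The heat shock element, in the form of 3 alternating repeats (GAANNTTCNNGAA or TTCNNGAANNTTC, each the reverse complement of the other, so that both strands are covered), was looked for in the RefSeq promoter windows of build GRCh38.p14, from 250 bases before to 50 bases after each start. Windows were listed for 70 of the 90 symbols. A match was found for 7 of these 70 genes (10.0%), against 0.608% of all 27305 genes with a window. The shorter form of 2 repeats (GAANNTTC or TTCNNGAA, each its own reverse complement and part of the longer one) was found for 32.9% against 16.2%. A match is a description of these letters, not a bound site. The matches are shown because 4 of the 7 genes, HSP90AA1, HSP90AB1, HSPA8 and HSPD1, are among those whose levels the results turn on. Capitals mark the element, 30 bases are printed 5′ to 3′ on the strand of the gene, and 2 overlapping elements are merged in HSPD1.
HSPD1: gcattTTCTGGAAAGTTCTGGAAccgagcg
HSPA8, nearer to the start: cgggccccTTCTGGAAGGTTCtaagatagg
HSPA8, farther from the start: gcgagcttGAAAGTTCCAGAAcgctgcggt
HSP90AB1, farther from the start: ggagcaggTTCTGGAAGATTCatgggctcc
HSP90AB1, nearer to the start: tgagattgTTCTGGAAGCTTCtggattctg
HSP90AA1: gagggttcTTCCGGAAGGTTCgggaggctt
HSPA6: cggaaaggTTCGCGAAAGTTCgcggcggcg
DNAJA1: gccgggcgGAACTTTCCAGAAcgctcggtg
DNAJB6: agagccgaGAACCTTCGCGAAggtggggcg
The printed stretches of genes on the minus strand lie at chr2:197500061-197500090 for HSPD1, at chr11:123062170-123062199 and chr11:123062345-123062374 for HSPA8, and at chr14:102087111-102087140 for HSP90AA1. Those on the plus strand lie at chr6:44247770-44247799 and chr6:44247823-44247852 for HSP90AB1, at chr1:161524458-161524487 for HSPA6, at chr9:33025268-33025297 for DNAJA1 and at chr7:157336865-157336894 for DNAJB6. Counted from the listed start, the first base of the element was at -245 in HSPD1, -55 and -230 in HSPA8, and -165 and -112 in HSP90AB1. It was at -88 in HSP90AA1, -74 in HSPA6, -131 in DNAJB6 and, past the start, at 3 in DNAJA1. The stretches of HSPD1, HSPA8, HSP90AB1 and HSP90AA1 fall within the span the annotation gives the gene, that of DNAJA1 runs across the gene's start with the element inside, and those of HSPA6 and DNAJB6 lie before the gene.

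After 48 h of drug the cytosolic HSP90 genes, HSPA4, HSPA9 and the mitochondrial chaperonin pair fell in the 4 cultures. HSPA8 fell in the 3 melanoma lines. CRYAB rose in Colo800 and UACC62, DNAJB4 and DNAJB5 in the 3 melanoma lines, and DNAJB2 and DNAJC4 in all 4 cultures. In A375 culture at 48 h, 43 of 71 tested members passed the test (limma on log2(value + 1), Benjamini-Hochberg adjusted p under 0.05). Of these 14 were higher and 29 lower, where 50.0% of all genes passed, 24.3% higher and 25.6% lower. Colo800 had 17 higher and 30 lower of 69 members, against 73.3% of all genes (36.0% higher, 37.3% lower). UACC62 had 19 higher and 24 lower of 72, against 56.5% (26.9% higher, 29.6% lower). H3122 had 6 higher and 30 lower of 69, against 46.1% (22.1% higher, 24.0% lower). In A375 tumours 22 were higher and 25 lower of 70, against 68.3% (34.2% higher, 34.0% lower). The members' share of calls was 60.6% in A375 culture, 68.1% in Colo800, 59.7% in UACC62, 52.2% in H3122 and 67.1% in A375 tumours. The median log2 change of the members tested was -0.25 in A375 culture, -0.10 in Colo800, -0.09 in UACC62, -0.25 in H3122 and -0.08 in A375 tumours, against medians of all genes between -0.01 and 0.00. Under quantile normalisation the UACC62 split turned to 25 higher and 20 lower, and that of all genes to 31.1% and 25.7%. Members passing in UACC62 numbered 28 without vehicle replicate 1 and 27 without vehicle replicate 2, and in H3122 21 without either crizotinib library. All genes passing were then 38.4% and 38.5% in UACC62, and 32.1% and 31.8% in H3122.

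**Figure D1:**
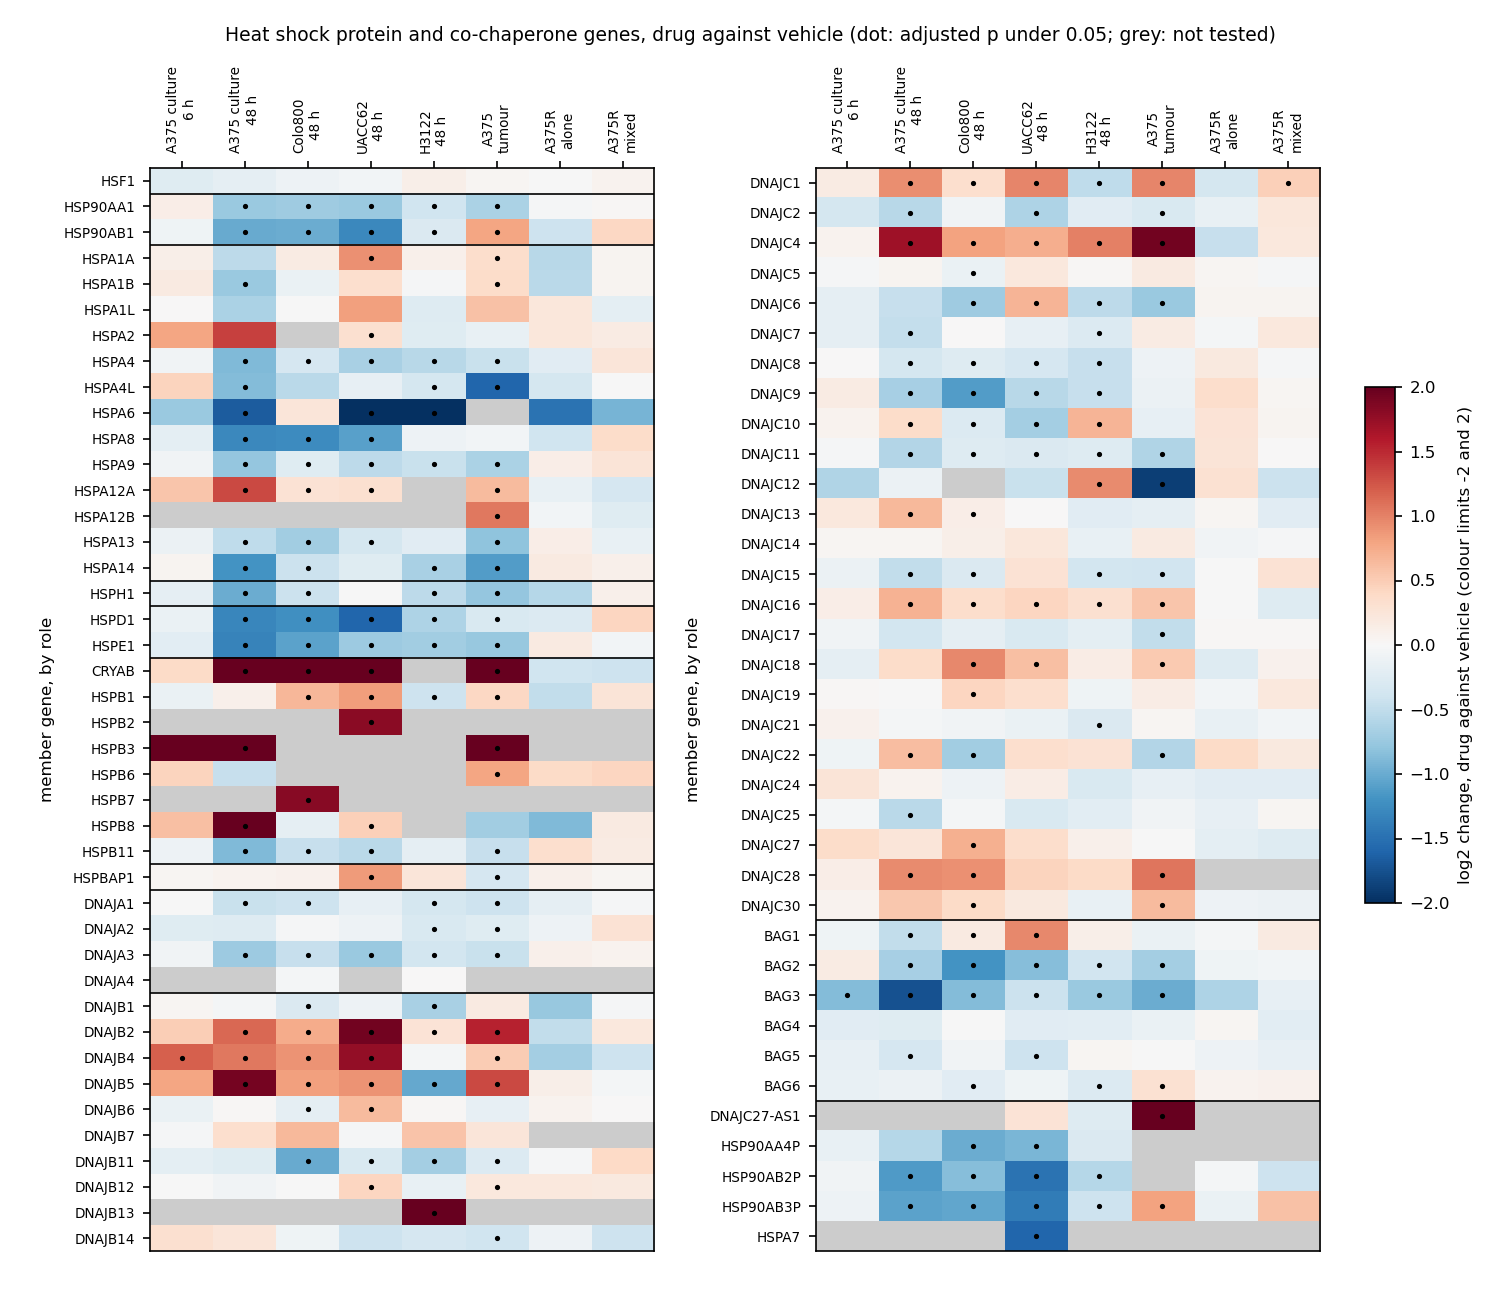
Log2 change on drug against vehicle for each member tested in at least 1 table (rows, by role, separated by lines) in 8 comparisons (columns); colour runs from -2 (blue) to 2 (red), dots mark an adjusted p under 0.05 and grey cells were not tested. HSP90AA1, HSPD1, HSPE1 and HSPA9 are blue with a dot in the 4 cultures at 48 h and in A375 tumours, CRYAB is red with a dot in Colo800 and UACC62, and the A375R columns hold 1 dot between them.

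HSF1, the transcription factor of the heat shock response, passed the test in none of the 12 comparisons. Its values in A375 culture were 1023, 1166 and 1409 with vehicle, 883, 985 and 1161 at 6 h and 894, 1179 and 1085 at 48 h, so the 3 groups overlapped. The log2 change at 48 h was -0.18 ± 0.16 in A375 culture, -0.10 ± 0.05 in Colo800, -0.05 ± 0.11 in UACC62 and 0.11 ± 0.09 in H3122, and 0.05 ± 0.07 in A375 tumours (SE throughout). It passed as lower without vemurafenib replicate 1 in Colo800 (adjusted p = 0.0485) and in UACC62 (0.0132).

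HSP90AB1, the constitutive cytosolic HSP90, and HSP90AA1, its inducible paralog, fell in all 4 cultures at 48 h. HSP90AB1 read 22899.7, 21202 and 20887 with vehicle and 9847, 11732 and 10738 at 48 h in A375 culture, every treated library below every vehicle library (log2 change -1.01 ± 0.11, adjusted p = 5.36e-05). In Colo800 it read 26891 and 26269 with vehicle and 13075 and 13615 with vemurafenib (log2 change -0.99 ± 0.04, adjusted p = 1.34e-13). UACC62 had 18866 and 18517 against 7524 and 7801, a 2.44-fold fall (log2 change -1.29 ± 0.08, adjusted p = 3.63e-06). In H3122 it went from 13884 and 15619 to 12539 and 11525 (log2 change -0.29 ± 0.09, adjusted p = 0.024). HSP90AA1 fell by 0.74 on the log2 scale in A375 culture and in UACC62, by 0.71 in Colo800 and by 0.39 in H3122, with no overlap of the groups in any of these lines. Both H3122 calls ended without crizotinib replicate 1 (adjusted p = 0.0996 for HSP90AB1 and 0.0991 for HSP90AA1) or replicate 2 (0.306 and 0.122), and under quantile normalisation (log2 change -0.16 and -0.03). That of HSP90AB1 also ended without vehicle replicate 2 (0.149).

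In A375 tumours the pair parted. HSP90AB1 read 9627, 10056, 9600.4 and 11749 with vehicle and 17831, 17414, 18817 and 16321 after vemurafenib, every treated library being the higher (log2 change 0.78 ± 0.08, adjusted p = 3.68e-07). HSP90AA1 read 5965, 7461, 5874 and 6706 with vehicle and 5030.2, 3752, 4392 and 3634 after vemurafenib, every treated library being the lower (log2 change -0.64 ± 0.10, adjusted p = 3.88e-05). Tumours differ from cultures in the RNA fraction, the host and the dosing, so which of these goes with the opposite direction of HSP90AB1 cannot be told apart, and the difference between tables was not tested. HSP90AB3P, a pseudogene whose reads may come from HSP90AB1, moved with it: lower in the 4 cultures (log2 change -1.07 in A375, -1.04 in Colo800, -1.39 in UACC62 and -0.41 in H3122) and higher in A375 tumours (0.80).

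Of the HSP70 genes tested, 1 of 12 rose and 8 fell in A375 culture (24.3% of all genes rose and 25.6% fell). Colo800 had 1 and 5 of 11 (36.0% and 37.3%), and UACC62 3 and 5 of 12 (26.9% and 29.6%). H3122 had 0 and 5 of 11 (22.1% and 24.0%), and A375 tumours 4 and 5 of 12 (34.2% and 34.0%). The falls in A375 culture, UACC62 and H3122 include HSPA6, and the rises in A375 tumours include HSPA12B. Both reached the limit for testing only through the groups in which they were high. HSPA8, the constitutive cytosolic HSP70, fell by more than 2-fold in the 3 melanoma lines. Its values went from 33739, 25913 and 30852 to 9608, 15081 and 12912 in A375 culture (log2 change -1.28 ± 0.21, adjusted p = 0.000492). Colo800 vehicle cells had 29544 and 29384 and treated cells 12031 and 12624 (log2 change -1.26 ± 0.04, adjusted p = 4.32e-15), and in UACC62 the change was -1.08 ± 0.09 (adjusted p = 1.74e-05). No library overlapped between groups in these lines. H3122 kept overlapping values, 34524 and 37155 with vehicle and 35079 and 32088 with crizotinib (log2 change -0.09 ± 0.10, adjusted p = 0.461), and A375 tumours did so too (13868, 14802, 13284 and 13538 against 14478, 13755, 13894 and 11293; log2 change -0.06 ± 0.09, adjusted p = 0.547). Quantile normalisation moved both of the last values past the threshold, to 0.27 in H3122 and -0.43 in A375 tumours, so that the H3122 change turned its direction and that of A375 tumours kept it.

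HSPA4, an exchange factor of the HSP110 kind, and HSPA9, the mitochondrial HSP70, fell in the 4 cultures and in A375 tumours. HSPA4 read 4439.7, 4102 and 4458 with vehicle and 2085, 2435 and 2531 at 48 h in A375 culture (log2 change -0.89 ± 0.11, adjusted p = 9.39e-05), and its log2 change was -0.33 in Colo800, -0.64 in UACC62, -0.55 in H3122 and -0.44 in A375 tumours. HSPA9 changed by -0.77, -0.25, -0.52, -0.44 and -0.63 in the same order. HSPH1, the founding HSP110, fell in A375 culture (-0.99 ± 0.13), Colo800 (-0.43 ± 0.04), H3122 (-0.53 ± 0.08) and A375 tumours (-0.77 ± 0.09), while in UACC62 it read 915 and 969 with vehicle and 913 and 952 with drug (log2 change -0.01 ± 0.10, adjusted p = 0.912). HSPA14, which works with DNAJC2 on the ribosome, fell in A375 culture (-1.19 ± 0.25), Colo800 (-0.42 ± 0.09), H3122 (-0.65 ± 0.11) and A375 tumours (-1.12 ± 0.11). HSPA13, an HSP70 of microsomes, fell in A375 culture (-0.51 ± 0.16), Colo800 (-0.69 ± 0.04), UACC62 (-0.36 ± 0.12) and A375 tumours (-0.80 ± 0.10). HSPA4L, a relative of HSPA4, fell in A375 culture (-0.87 ± 0.22), H3122 (-0.36 ± 0.13) and A375 tumours (-1.58 ± 0.25). HSPA2, best known from the testis, rose in UACC62 from 916 and 941 to 1178 and 1137 (log2 change 0.32 ± 0.10, adjusted p = 0.0203).

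The stress-inducible pair HSPA1A and HSPA1B showed no common direction. HSPA1B fell in A375 culture at 48 h (log2 change -0.74 ± 0.25, adjusted p = 0.0298), a call that ended without vehicle replicate 1 or 3 or without 48 h replicate 1 (adjusted p between 0.078 and 0.105), while HSPA1A read 376, 259 and 339.7 against 159, 281 and 251 and did not pass (adjusted p = 0.0772; 0.0462 without vehicle replicate 2 and 0.0434 without 48 h replicate 2). HSPA1A rose in UACC62, from 198 and 173 to 403 and 307 (log2 change 0.92 ± 0.16, adjusted p = 0.0012). In A375 tumours both passed as higher with overlapping groups (HSPA1A 0.35 ± 0.15, HSPA1B 0.37 ± 0.16, adjusted p = 0.0425 and 0.0425), and their adjusted p over the alternatives ran up to 0.137 and 0.17. The calls there ended for both genes without vehicle replicate 1 or 3 or vemurafenib replicate 1 or 3, for HSPA1A also without vehicle replicate 2, and for HSPA1B also without vehicle replicate 4 or vemurafenib replicate 2.

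HSPA6, an HSP70 gene known for being silent until strong stress, had low values in the cultures. It read 31.4 and 37.1 in UACC62 with vehicle and 5.18 and 2.00 with vemurafenib, 70 reads in all against 7. H3122 had 13.8 and 26.4 against 7.05 and 2.05, 41 reads against 9 (log2 change -2.02 ± 0.54, and -1.32 without crizotinib replicate 2). A375 culture read 37.8, 28.2 and 20.7 with vehicle and 9.92, 6.20 and 8.83 at 48 h, and Colo800 read 71.4 and 78.2 with vehicle against 79.0 and 98.7 (log2 change 0.24 ± 0.17, adjusted p = 0.207). HSPA12A, a divergent HSP70, rose in A375 culture (1.32 ± 0.19), Colo800 (0.29 ± 0.09), UACC62 (0.32 ± 0.11) and A375 tumours (0.63 ± 0.15), and was below the limit for testing in H3122.

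HSPD1 and HSPE1 encode HSP60 and HSP10, the chaperonin and its lid in the mitochondrial matrix. Both fell in all 4 cultures at 48 h and in A375 tumours. HSPD1 read 7229.5, 5696 and 6031 with vehicle and 2248, 2744 and 2639 at 48 h in A375 culture (log2 change -1.31 ± 0.13, adjusted p = 3.06e-05). Colo800 went from 9184 and 9040.0 to 3932 and 3888 (log2 change -1.22 ± 0.04, adjusted p = 2.52e-15). UACC62 went from 8626 and 8445 to 2862 and 2838, a 2.99-fold fall (log2 change -1.58 ± 0.08, adjusted p = 1.15e-06). In H3122 it went from 10489 and 11261 to 7237 and 6952 (log2 change -0.62 ± 0.08, adjusted p = 0.000127). A375 tumours had 5409, 5523, 5681 and 6117 with vehicle and 4431, 4413, 5159 and 4388 after vemurafenib (log2 change -0.31 ± 0.08, adjusted p = 0.0017). In each of these 5 tables every treated library was below every vehicle library. HSPE1 read 202, 199.6 and 261 with vehicle and 62.9, 109 and 92.8 at 48 h in A375 culture, again without overlap, and changed by -1.34 ± 0.22 there, -1.07 ± 0.11 in Colo800, -0.72 ± 0.13 in UACC62, -0.70 ± 0.15 in H3122 and -0.76 ± 0.10 in A375 tumours. DNAJA3, the J-domain partner of HSPA9 in mitochondria, fell in all 5 as well (-0.73, -0.46, -0.74, -0.37 and -0.45 in the same order).

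**Figure D2:**
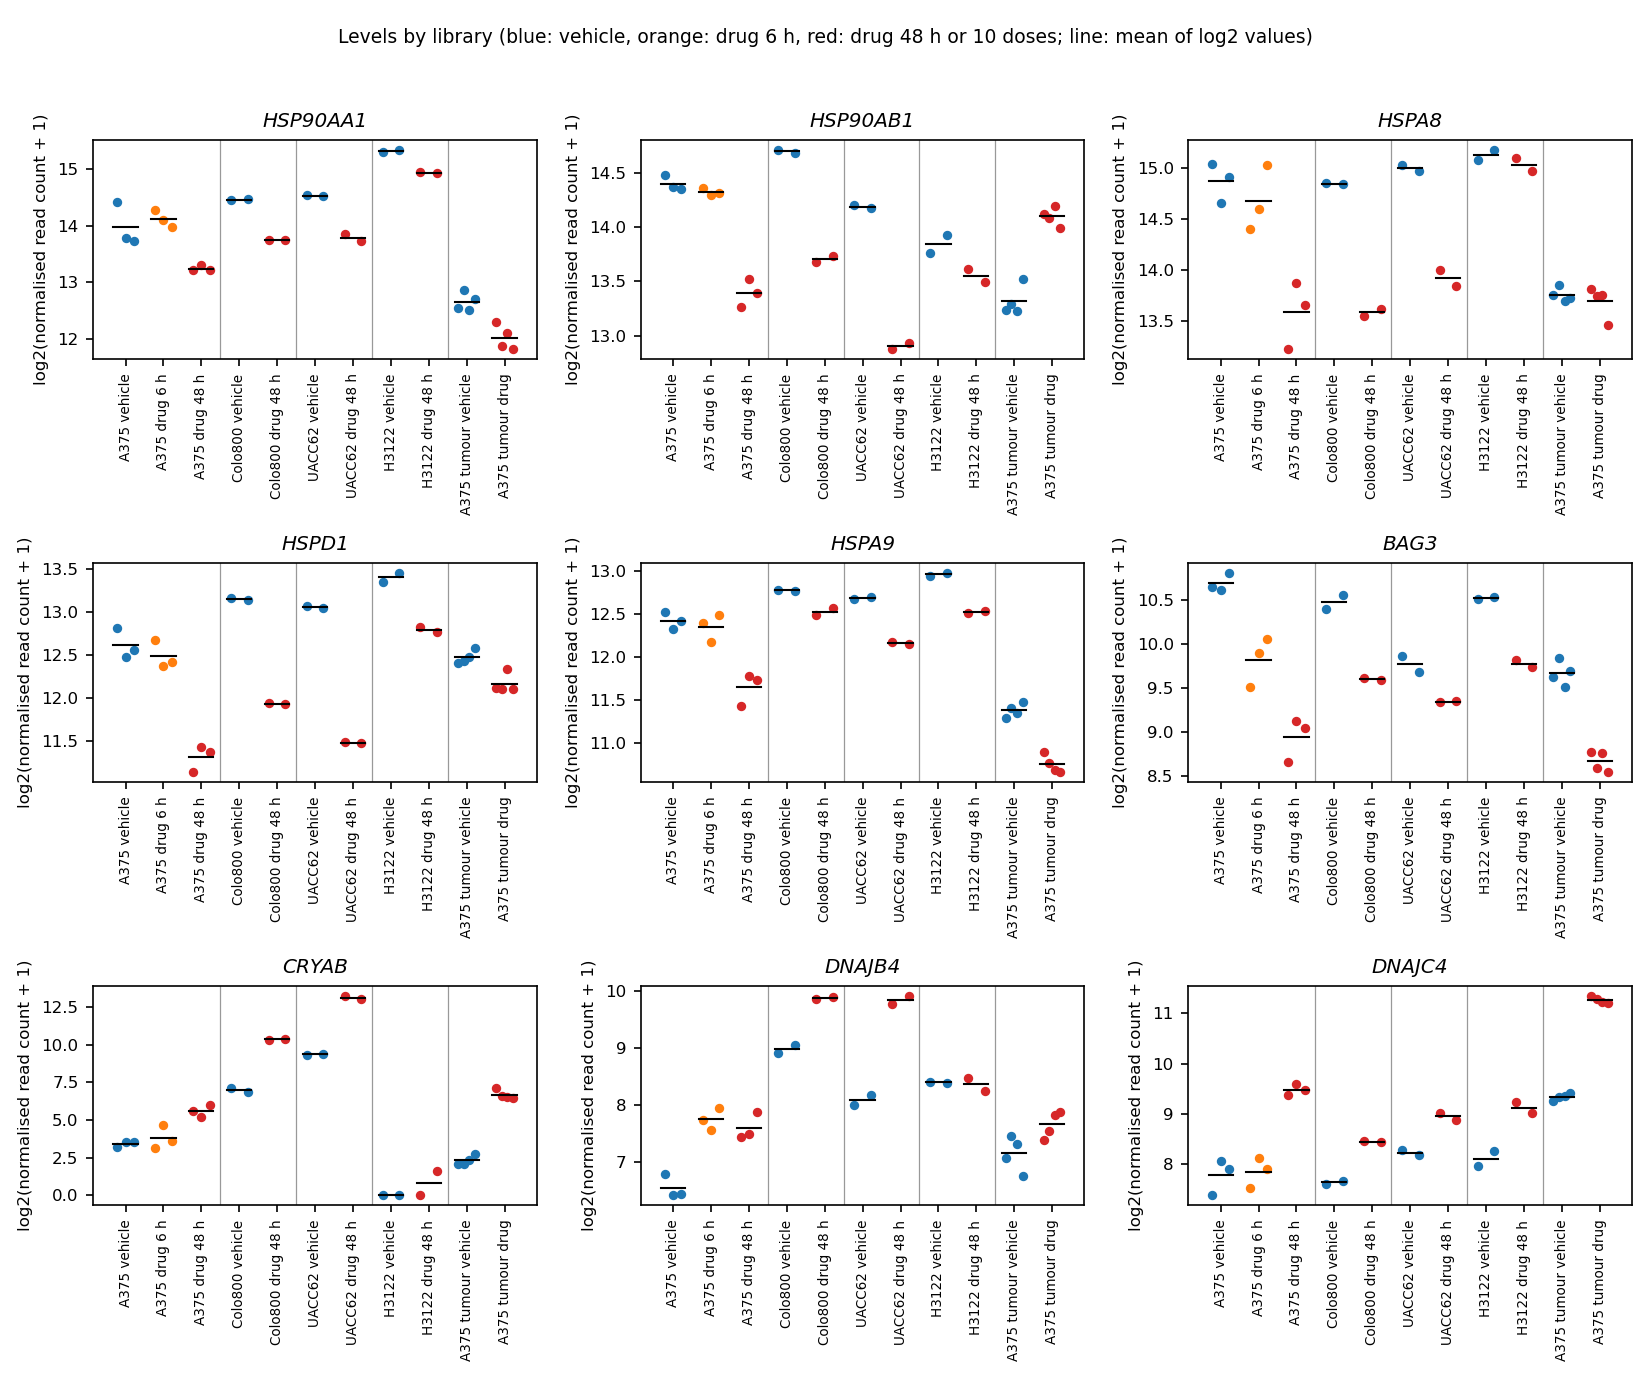
Log2(normalised read count + 1) of 9 members in each library (points) by group (vehicle blue, 6 h orange, 48 h or 10 doses red; black line, mean of the log2 values), with vertical lines between tables that were normalised separately, so that levels compare only within a table. At 48 h in the 4 cultures and in A375 tumours, treated libraries lie below vehicle for HSPD1, HSPA9 and BAG3 and above it for DNAJC4, while HSP90AB1 lies below in the cultures and above in A375 tumours.

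Among the members tested, CRYAB had the largest rise in Colo800 and in UACC62. Of the small heat shock proteins tested, 3 of 6 rose and 1 fell in A375 culture (24.3% of all genes rose and 25.6% fell). Colo800 had 3 and 1 of 5 (36.0% and 37.3%), and UACC62 4 and 1 of 5 (26.9% and 29.6%). H3122 had 0 and 1 of 2 (22.1% and 24.0%), and A375 tumours 4 and 1 of 6 (34.2% and 34.0%). The rises in A375 culture and A375 tumours include HSPB3 and CRYAB, which reached the limit for testing only through the treated libraries. CRYAB is alpha-B-crystallin, known from the eye lens and muscle. UACC62 went from 655 and 669 with vehicle to 9818 and 8329 with vemurafenib, a 13.6-fold rise (log2 change 3.77 ± 0.10, adjusted p = 6.1e-08). Colo800 went from 137 and 118 to 1281 and 1372 (log2 change 3.37 ± 0.08, adjusted p = 5.95e-17). In A375 culture the values were low, 8.40, 10.8 and 10.4 with vehicle, 7.86, 24.5 and 11.4 at 6 h and 47.1, 35.1 and 62.9 at 48 h, and the 48 h libraries stood above all others (log2 change 2.15 ± 0.40). A375 tumours had 3.21, 3.13, 4.07 and 5.82 with vehicle and 137, 94.4, 91.8 and 86.2 after vemurafenib (log2 change 4.36 ± 0.25). In reads that was 16 against 480, a ratio of 24.4 (95% counting interval 14.9 to 43.1, counting error only). H3122 listed CRYAB at 0 and 0 with vehicle and 0 and 2.05 with crizotinib, too low to test.

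HSPB2, which lies next to CRYAB in the genome and is best known from muscle, rose in UACC62 from 132 and 152 to 547 and 449.6 (log2 change 1.80 ± 0.14, adjusted p = 1.34e-05), and was under the limit for testing elsewhere. HSPB3, another muscle gene, read 6.30, 3.25 and 3.76 with vehicle and 43.8, 14.5 and 37.5 at 48 h in A375 culture, 13 reads in all against 101. Its mean at 6 h was 33.1, without passing the test, beside 4.44 with vehicle and 31.9 at 48 h. In A375 tumours HSPB3 was at 0, 0, 0.509 and 0 with vehicle and 94.9, 21.3, 25.1 and 52.1 after vemurafenib, 1 read against 228, a ratio of 186 with a counting interval from 33.0 to 7369. HSPB7 rose in Colo800, from 90.5 and 77.2 to 284 and 313 (log2 change 1.82 ± 0.12, adjusted p = 1.97e-10). HSPB8, the partner of BAG3, rose in A375 culture (2.42 ± 0.50) and UACC62 (0.48 ± 0.10), and A375 tumours read 30.5, 59.5, 25.4 and 16.0 with vehicle and 21.2, 12.2, 18.8 and 20.6 after vemurafenib (adjusted p = 0.0691).

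HSPB1, the widely expressed HSP27, rose in Colo800 (0.67 ± 0.06), UACC62 (0.83 ± 0.12) and A375 tumours (0.42 ± 0.07) and fell in H3122 (-0.42 ± 0.10), without overlap in any of the 4. Without H3122 vehicle replicate 2 the fall there was -0.27 (adjusted p = 0.0161). In A375 culture it read 1139.8, 1485 and 1689 with vehicle and 829.5, 2130.3 and 1982 at 48 h, with 1 treated library below and 2 above all vehicle libraries (log2 change 0.10 ± 0.31, adjusted p = 0.811); without 48 h replicate 1 the change was 0.53 (adjusted p = 0.0387). HSPB11, which encodes an intraflagellar transport protein rather than a classical chaperone, fell in the 3 melanoma lines and A375 tumours (-0.88 in A375 culture, -0.46 in Colo800, -0.53 in UACC62 and -0.46 in A375 tumours). HSPB6, abundant in muscle, rose in A375 tumours from 17.6, 10.96, 15.8 and 21.8 to 44.4, 29.4, 22.0 and 22.5 (log2 change 0.78 ± 0.28, adjusted p = 0.0202). HSPBAP1, whose product binds HSPB1, rose in UACC62 (0.86 ± 0.14) and fell, with overlapping groups, in A375 tumours (-0.34 ± 0.14). The 5 skeletal muscle markers were MYH2, ACTA1, CKM, DES and MB. Their summed level in A375 tumours was 21.8 to 36.0 with vehicle and 30.5 to 98.4 after vemurafenib. In UACC62, where MYH2 was at 0, it was 4.12 to 5.54 and 22.8 to 32.0, and in Colo800 it was 18.1 to 24.4 and 13.4 to 14.2. Their part in the rises was not tested.

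**Figure D3:**
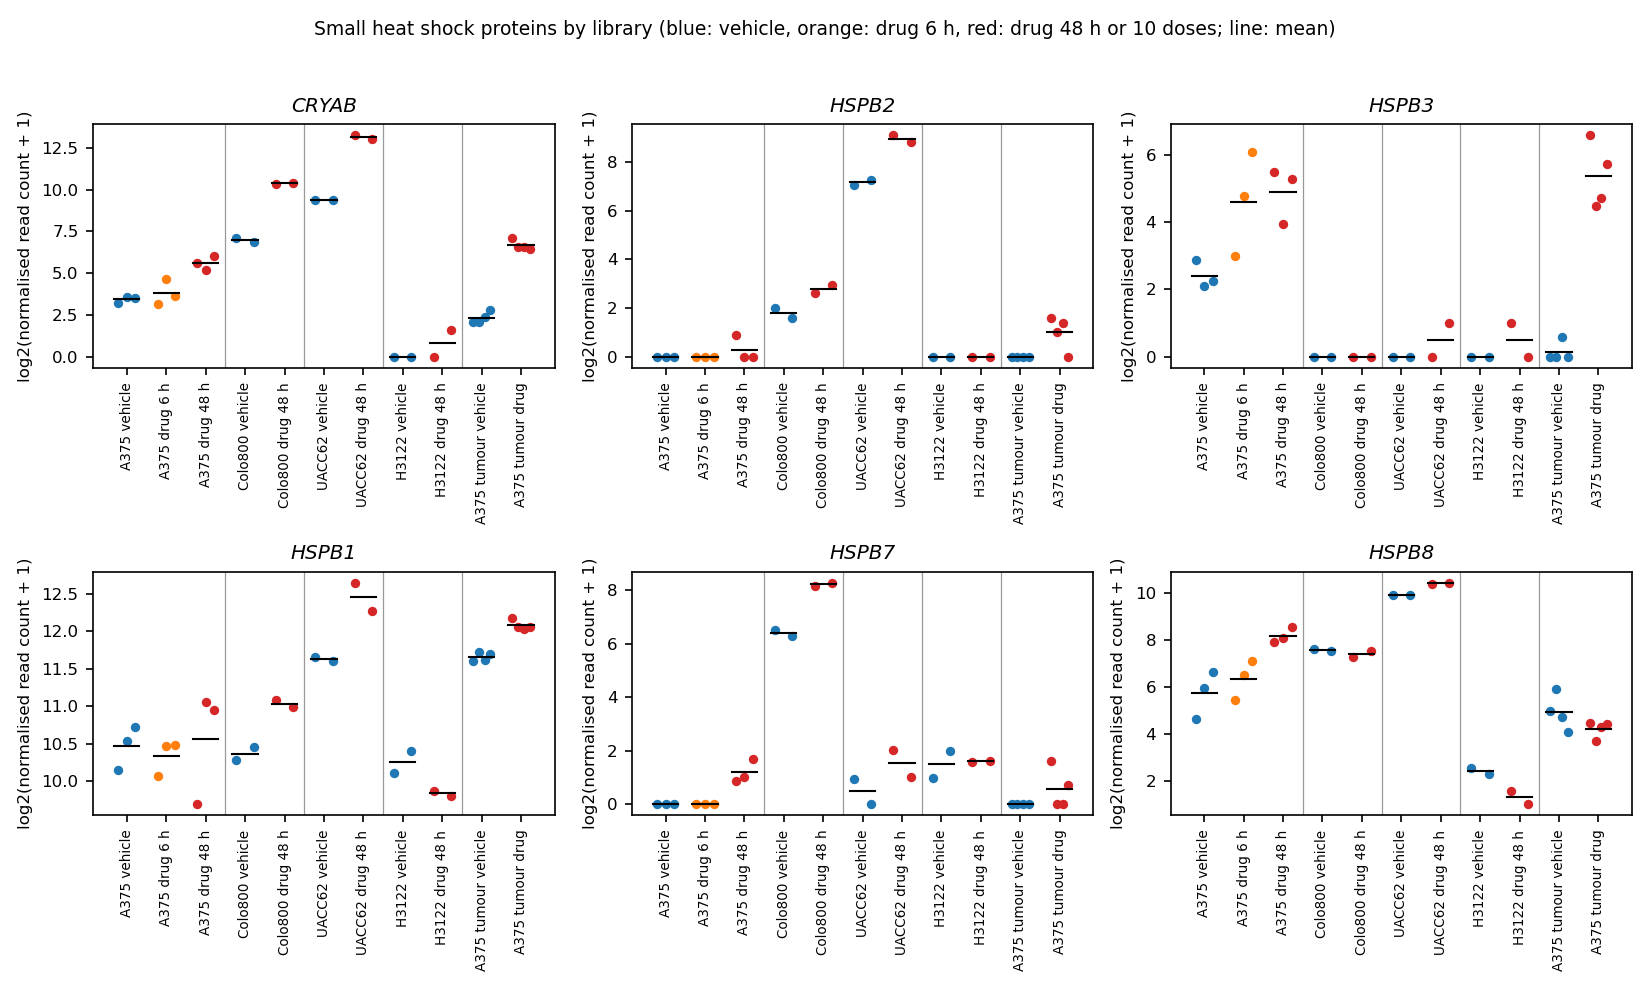
Log2(normalised read count + 1) of 6 small heat shock protein genes in each library (points; vehicle blue, 6 h orange, 48 h or 10 doses red; black line, mean of the log2 values), with vertical lines between tables. CRYAB is higher on drug in the melanoma cultures and A375 tumours and is at or near 0 in H3122, HSPB2 stands out in UACC62, HSPB7 in Colo800 and HSPB3 in A375 culture and treated A375 tumours.

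Among the DNAJA genes, DNAJA1, a common partner of HSPA8, fell in A375 culture (-0.45 ± 0.14), Colo800 (-0.41 ± 0.04), H3122 (-0.35 ± 0.08) and A375 tumours (-0.41 ± 0.09), and no DNAJA gene rose in any comparison. Of the DNAJB genes tested, 3 of 9 rose and 0 fell in A375 culture (24.3% of all genes rose and 25.6% fell). Colo800 had 3 and 3 of 9 (36.0% and 37.3%), and UACC62 5 and 1 of 9 (26.9% and 29.6%). H3122 had 2 and 3 of 10 (22.1% and 24.0%), and A375 tumours 4 and 2 of 9 (34.2% and 34.0%). The rises in H3122 include DNAJB13, which reached the limit for testing only through the treated libraries. DNAJB4, a close relative of DNAJB1, read 256 and 288 in UACC62 with vehicle and 881 and 968 with vemurafenib (log2 change 1.76 ± 0.12, adjusted p = 4.32e-06), and rose in Colo800 (0.89 ± 0.06), A375 culture (1.05 ± 0.19) and, with overlapping groups, A375 tumours (0.51 ± 0.15). H3122 read 338 and 335 against 357 and 303 (log2 change -0.03 ± 0.12, adjusted p = 0.836). DNAJB5 rose in A375 culture, from 78.7, 113 and 61.2 to 369.7, 286 and 284 (log2 change 1.92 ± 0.23, adjusted p = 7.6e-05), in Colo800 (0.83 ± 0.11), UACC62 (0.89 ± 0.13) and A375 tumours (1.32 ± 0.10), and fell in H3122 from 202 and 205 to 85.6 and 115 (log2 change -1.03 ± 0.16, adjusted p = 0.000315).

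DNAJB2, whose product carries ubiquitin-binding motifs and passes clients to the proteasome, rose in all 5 of these tables, from 593, 637, 619.9 and 643 to 1903, 1677, 1825 and 1841 in A375 tumours (log2 change 1.54 ± 0.07, adjusted p = 1.19e-11) and by 1.93 in UACC62 on the log2 scale. Its small rise in H3122 (0.28 ± 0.10, adjusted p = 0.0348) ended without vehicle replicate 1 or either crizotinib library (adjusted p between 0.0508 and 0.352), with the replicate block (0.0946) and with DESeq2 (0.0944). DNAJB1, the principal HSP40 and a classical heat shock gene, fell in H3122 (log2 change -0.64 ± 0.08, adjusted p = 7.41e-05) and Colo800 (-0.28 ± 0.04), and did not pass in A375 culture (-0.05 ± 0.14), UACC62 (-0.09 ± 0.11) or A375 tumours (0.18 ± 0.08). It passed in UACC62 as lower without vemurafenib replicate 1 (adjusted p = 0.000659), and in A375 tumours its adjusted p over the alternatives ran from 0.0341 to 0.203. DNAJB11, a partner of HSPA5 in the endoplasmic reticulum, fell in Colo800 (-1.01 ± 0.04), UACC62 (-0.30 ± 0.10), H3122 (-0.67 ± 0.10) and A375 tumours (-0.28 ± 0.12). DNAJB13, known from cilia and sperm flagella, read 3.93 and 7.83 with vehicle and 27.2 and 30.8 with crizotinib in H3122.

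The DNAJC genes share a J domain but little else. Of those tested, 7 of 25 rose and 7 fell in A375 culture (24.3% of all genes rose and 25.6% fell). Colo800 had 9 and 8 of 24 (36.0% and 37.3%), and UACC62 5 and 5 of 25 (26.9% and 29.6%). H3122 had 4 and 8 of 25 (22.1% and 24.0%), and A375 tumours 6 and 7 of 25 (34.2% and 34.0%). The rises in A375 tumours include DNAJC28, which reached the limit for testing only through the treated libraries. DNAJC4 rose in all 4 cultures and in A375 tumours, where it read 614, 644, 654 and 677 with vehicle and 2604, 2503, 2405 and 2358 after vemurafenib, a 3.81-fold difference (log2 change 1.93 ± 0.07, adjusted p = 5.54e-13). The rise was 1.69 ± 0.20 in A375 culture, 0.81 ± 0.09 in Colo800, 0.72 ± 0.12 in UACC62 and 1.01 ± 0.13 in H3122, with no overlap. DNAJC1, of the endoplasmic reticulum membrane, rose in A375 culture (0.93 ± 0.21), Colo800 (0.33 ± 0.09), UACC62 (0.98 ± 0.10) and A375 tumours (0.97 ± 0.09) and fell in H3122 (-0.51 ± 0.12). DNAJC9, a co-chaperone of histones, fell in A375 culture (-0.66 ± 0.15), Colo800 (-1.12 ± 0.09), UACC62 (-0.55 ± 0.14) and H3122 (-0.47 ± 0.09). DNAJC11, of the mitochondrial membranes, passed as lower in those 4 and in A375 tumours. DNAJC12, a partner of the aromatic amino acid hydroxylases, fell in A375 tumours from 184, 204, 221 and 189 to 54.5, 41.6, 53.4 and 67.5 (log2 change -1.88 ± 0.15, adjusted p = 8.35e-09) and rose in H3122 (0.94 ± 0.25; 0.56 without vehicle replicate 1). DNAJC10, a disulfide reductase of the endoplasmic reticulum, rose in A375 culture (0.36 ± 0.10) and H3122 (0.69 ± 0.08) and fell in Colo800 (-0.27 ± 0.04) and UACC62 (-0.67 ± 0.09). DNAJC6, auxilin, which uncoats clathrin vesicles, fell in Colo800 (-0.72 ± 0.14), H3122 (-0.52 ± 0.17) and A375 tumours (-0.74 ± 0.12) and rose in UACC62 (0.68 ± 0.17). DNAJC27-AS1, antisense to a DNAJC gene, read 8.02, 10.96, 9.67 and 5.82 in vehicle and 44.4, 40.6, 31.4 and 34.7 in treated A375 tumours. In A375 culture DNAJC12 overlapped between vehicle and 48 h (log2 change -0.11 ± 0.20, adjusted p = 0.665).

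BAG3, which joins HSP70 to HSPB8 in selective autophagy and is a sensitive target of HSF1, fell in the 4 cultures and in A375 tumours. Of the 6 BAG genes, 0 rose and 4 fell in A375 culture (24.3% of all genes rose and 25.6% fell). Colo800 had 1 and 3 (36.0% and 37.3%), and UACC62 1 and 3 (26.9% and 29.6%). H3122 had 0 and 3 (22.1% and 24.0%), and A375 tumours 1 and 2 (34.2% and 34.0%). BAG3 read 1602, 1566 and 1787 with vehicle, 728, 949 and 1058 at 6 h and 404, 558 and 526 at 48 h in A375 culture, 3 groups without overlap (log2 change -1.74 ± 0.16, adjusted p = 1.82e-05 at 48 h). Colo800 went from 1345 and 1504 to 782 and 771 (log2 change -0.87 ± 0.06, adjusted p = 1.12e-10), and H3122 from 1449.9 and 1472 to 899 and 852 (log2 change -0.74 ± 0.08, adjusted p = 3.07e-05). A375 tumours went from 787, 916, 727 and 824 to 437, 384, 435 and 373 (a 1.99-fold fall, adjusted p = 5.02e-08). The fall in UACC62 was the smallest of these (log2 change -0.42 ± 0.11, adjusted p = 0.00901) and ended without vehicle replicate 1 (adjusted p = 0.256) or 2 (0.0656). BAG2, an exchange factor that restrains the ubiquitin ligase CHIP, also fell in all 5, by 1.20 on the log2 scale in Colo800 and 0.39 in H3122. BAG1 fell in A375 culture (-0.50 ± 0.15) and rose in Colo800 (0.18 ± 0.07) and UACC62, in the latter from 328 and 327 to 714 and 568 (log2 change 0.96 ± 0.13, adjusted p = 0.000346). BAG6, which guards membrane proteins before insertion, rose in A375 tumours (0.31 ± 0.07) and fell in Colo800 (-0.23 ± 0.04) and H3122 (-0.28 ± 0.08).

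A375 culture was sampled at 2 times after the drug. At 6 h, when SPRY4 had already changed by -4.69 ± 0.24, 2 of 71 members passed, against 4.40% of all genes (1.07% higher, 3.33% lower). DNAJB4 was higher, at 213, 187 and 247 against 110.2, 84.6 and 85.6 (log2 change 1.20 ± 0.19, adjusted p = 0.00481), and BAG3 was lower (log2 change -0.87 ± 0.16, adjusted p = 0.0128; adjusted p = 0.053 without vehicle replicate 3). Between 6 h and 48 h 36 of 71 members differed, 12 higher and 24 lower, against 39.3% of all genes (19.6% higher, 19.7% lower). DNAJB4 did not pass between the times (log2 change -0.15 ± 0.19, adjusted p = 0.571), BAG3 fell further (log2 change -0.87 ± 0.16, adjusted p = 0.00192), and HSP90AB1 (-0.93 ± 0.11), HSPD1 (-1.18 ± 0.13), HSPA8 (-1.09 ± 0.21) and HSPH1 (-0.81 ± 0.13) fell in this interval. At 6 h these 4 had changes of -0.08 ± 0.11, -0.13 ± 0.13, -0.19 ± 0.21 and -0.18 ± 0.13, none past the test. CRYAB, given here as a description with no p, was higher at 48 h than at 6 h (log2 change 1.77 ± 0.40). HSPA1A was lower at 48 h than at 6 h (adjusted p = 0.0453), a call that ended without any 1 of the 3 libraries at 6 h or without 48 h replicate 1 or 3 (adjusted p between 0.0585 and 0.147). Replicate numbers pair the vehicle and 6 h libraries, and with the replicate number as a block 7 members passed at 6 h, 5 higher and 2 lower, where 10.6% of all genes did (3.89% higher, 6.69% lower).

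**Figure D4:**
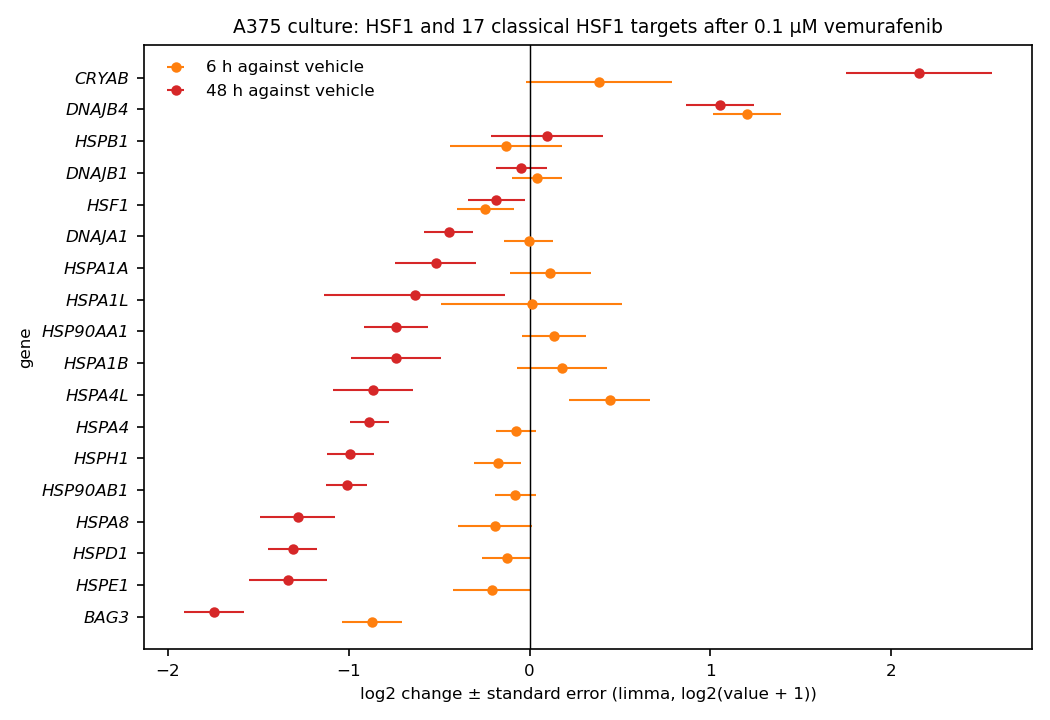
Log2 change against vehicle with its standard error (horizontal axis) for HSF1 and 17 of its classical targets (rows) in A375 culture at 6 h (orange) and 48 h (red) of vemurafenib, n = 3 each, with the vehicle libraries shared by both times. At 6 h DNAJB4 and BAG3 pass the test. At 48 h 13 of the 17 targets do, 11 of them lower, beside 50.0% and 25.6% of all genes. The 13 include CRYAB, which reached the limit for testing only through the treated libraries.

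Of 17 classical targets of HSF1, a subset listed from textbook knowledge, 13 passed in A375 culture at 48 h. Of these 2 were higher and 11 lower, where 50.0% of all genes passed, 24.3% higher and 25.6% lower. Colo800 had 13 (3 higher, 10 lower) against 73.3% (36.0% higher, 37.3% lower). UACC62 had 11 (4 higher, 7 lower) against 56.5% (26.9% higher, 29.6% lower). H3122 had 11 of 16 tested (0 higher, 11 lower) against 46.1% (22.1% higher, 24.0% lower). A375 tumours had 14 (6 higher, 8 lower) against 68.3% (34.2% higher, 34.0% lower). The rises in A375 culture and A375 tumours include CRYAB, which reached the limit for testing only through the treated libraries. The median log2 change of the 17 was -0.74, -0.41 and -0.16 in A375, Colo800 and UACC62 culture, -0.37 in H3122 and -0.06 in A375 tumours, beside medians of all genes between -0.01 and 0.00. The lines do not share control samples, so the same call in several of them can be counted. Of 64 members tested in all 4 cultures, 14 (21.9%) were lower at 48 h in each, where 9.48% of 11804 genes were. Another 3 (4.69%) were higher in each, where 5.51% of genes were. Lower throughout were HSP90AA1, HSP90AB1, HSP90AB2P, HSP90AB3P, HSPA4, HSPA9, HSPD1, HSPE1, BAG2, BAG3, DNAJA3, DNAJC8, DNAJC9 and DNAJC11, and higher throughout were DNAJB2, DNAJC4 and DNAJC16. HSP90AB2P and HSP90AB3P may share reads with HSP90AB1 and so may not count apart from it. The H3122 calls of HSP90AA1, HSP90AB1 and DNAJB2 and the UACC62 call of BAG3 ended in fits without 1 library. The call of DNAJC16 in H3122 ended without vehicle replicate 2 or either crizotinib library (adjusted p between 0.0854 and 0.295). With A375 tumours added, 9 of 61 members (14.8%) were lower in all 5 tables, against 7.76% of genes. Across members the log2 changes of A375 culture and Colo800 had a Pearson correlation of 0.70 (67 genes; 0.64 over 12743 genes), and those of H3122 and A375 tumours one of 0.20 (64 genes; 0.35 over all), as a description across genes, which are not independent.

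Chaperone genes outside the symbol rule were counted from a list of 36 names, 35 of them tested in each table. In A375 culture 4 were higher and 25 lower at 48 h, where 24.3% of all genes were higher and 25.6% lower. Colo800 had 7 higher and 25 lower (36.0% and 37.3% of all genes), UACC62 6 and 24 (26.9% and 29.6%), H3122 4 and 20 (22.1% and 24.0%), and A375 tumours 9 and 18 (34.2% and 34.0%). At 6 h 0 passed, beside 4.40% of all genes. The 8 subunits of the cytosolic chaperonin on the list (TCP1, CCT2, CCT3, CCT4, CCT5, CCT6A, CCT7 and CCT8) were lower in each of the 4 cultures, while in A375 tumours CCT4 and CCT6A were higher and TCP1, CCT2, CCT5 and CCT7 lower. The HSP90 co-chaperones STIP1 (-1.26 ± 0.15 in A375 culture), FKBP4 (-1.34 ± 0.12) and FKBP5 (-1.92 ± 0.27) fell in the 4 cultures and A375 tumours. AHSA2 (1.44 ± 0.23 in A375 culture) rose in the same 5 tables, and HSF4, an HSF1 paralog, in the 4 cultures (1.67 ± 0.22 in A375 culture). Of the chaperones of the endoplasmic reticulum that the rule sets aside, HSP90B1 fell in all 5 (-0.50 in A375 culture with overlapping groups, -1.23 in Colo800, -1.14 in UACC62, -0.36 in H3122 and -0.50 in A375 tumours). HSPA5 fell in Colo800 (-0.97), UACC62 (-0.61), H3122 (-0.54) and A375 tumours (-0.40).

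In A375R tumours, which resist vemurafenib, few members passed. In tumours of A375R alone 0 of 68 members passed on vemurafenib, against 0.792% of all genes, with 0 by edgeR (0.582% of all genes) and 7 by DESeq2 (6.15%). At an unadjusted p under 0.05, 22 did, against 18.4% of all genes, and 16 of them were lower, against 9.17%. DNAJB1 read 18444, 23245 and 17853 with vehicle and 8806, 11925 and 14931 with vemurafenib, every treated library below every vehicle library (log2 change -0.76 ± 0.21, adjusted p = 0.0801). BAG3 read 3025, 4699 and 3039.7 and 2137, 2139 and 2629, also without overlap (log2 change -0.62 ± 0.18, adjusted p = 0.092). The same separation held for HSPA6 (-1.48 ± 0.47), HSPA1A (-0.56 ± 0.21), HSPH1 (-0.56 ± 0.20) and HSPB8 (-0.88 ± 0.24), none past the test. How many of all genes separate in this way was not counted, so these separations have no background and are a description. The 6 members higher at an unadjusted p under 0.05 are not named here. With the 2 groups fitted alone 7 members passed as lower, where 2.61% of all genes did. The replicate block gave 3 as lower (1.26% of all genes), and the fit without vemurafenib replicate 3 gave 2 (1.13%).

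In mixed tumours 1 of 68 members passed on vemurafenib, against 3.48% of all genes (1.24% higher). It was DNAJC1, at 597, 793 and 688 with vehicle and 894, 991 and 979.9 with vemurafenib (log2 change 0.47 ± 0.12, adjusted p = 0.0337), and the call ended without mixed vehicle replicate 1 or 3 or mixed vemurafenib replicate 2 or 3 (adjusted p between 0.056 and 0.168). With vehicle, mixed tumours had lower DNAJC1 (log2 change -0.45 ± 0.12, adjusted p = 0.0443) and DNAJC4 (log2 change -0.48 ± 0.12, adjusted p = 0.0399) than tumours of A375R alone, 2 of 68 members against 3.30% of all genes (1.37% lower). Of the 6 vehicle libraries, leaving out any 1 but mixed replicate 2 ended the first call, and any 1 but mixed replicate 3 the second (adjusted p up to 0.237 and 0.182). With vemurafenib 0 of 68 passed between mixed and alone, against 0.240% of all genes, with 13 at an unadjusted p under 0.05 (12.4% of all genes), 0 by edgeR (0.0945%) and 1 by DESeq2 (1.13%). SOX10, a melanoma marker, read 129, 55.8 and 118 in vehicle tumours of A375R alone and 1021, 508 and 837 in mixed vehicle tumours. With vemurafenib it read 349, 123 and 69.4 alone and 91.7, 254 and 59.5 mixed, and its part in these comparisons was not tested.

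The effect of vemurafenib differed between mixed and unmixed A375R tumours for 4 of 68 members, all more positive in mixed tumours, against 2.89% of all genes (1.91% more positive). HSP90AB1 read 58845, 48012 and 52263 with vehicle and 39397, 40204 and 39065 with vemurafenib in tumours of A375R alone. In mixed tumours it read 36544, 42622 and 41898 with vehicle and 46141, 60725 and 55409 with vemurafenib, so that vemurafenib libraries were the lower in the first kind and the higher in the second (difference of changes 0.84 ± 0.18, adjusted p = 0.028). HSPD1 differed by 0.71 ± 0.18 (adjusted p = 0.0448), DNAJC1 by 0.83 ± 0.16 (adjusted p = 0.021) and DNAJC4 by 0.67 ± 0.17 (adjusted p = 0.0479). At an unadjusted p under 0.05 13 members differed, where 18.9% of all genes did, and the 13 were all more positive, as were 10.2% of all genes. The calls depended on the setting. Quantile normalisation gave 2 members, where 2.17% of all genes passed (HSP90AB1 0.33 and HSPD1 0.41, neither past the test). The number of members passing ran from 0 to 6 as each library was left out. It was 0 without vehicle replicate 1 or 3 or vemurafenib replicate 2 of the tumours of A375R alone (0.109%, 0.0727% and 0.349% of all genes). It was also 0 without vehicle replicate 1 (0.292%) or vemurafenib replicate 3 of the mixed tumours. It was 1 without vemurafenib replicate 1 of the tumours of A375R alone (1.10% of all genes) or 2 of the mixed tumours. It was 2 without vehicle replicate 2 of the tumours of A375R alone (1.61%).

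**Figure D5:**
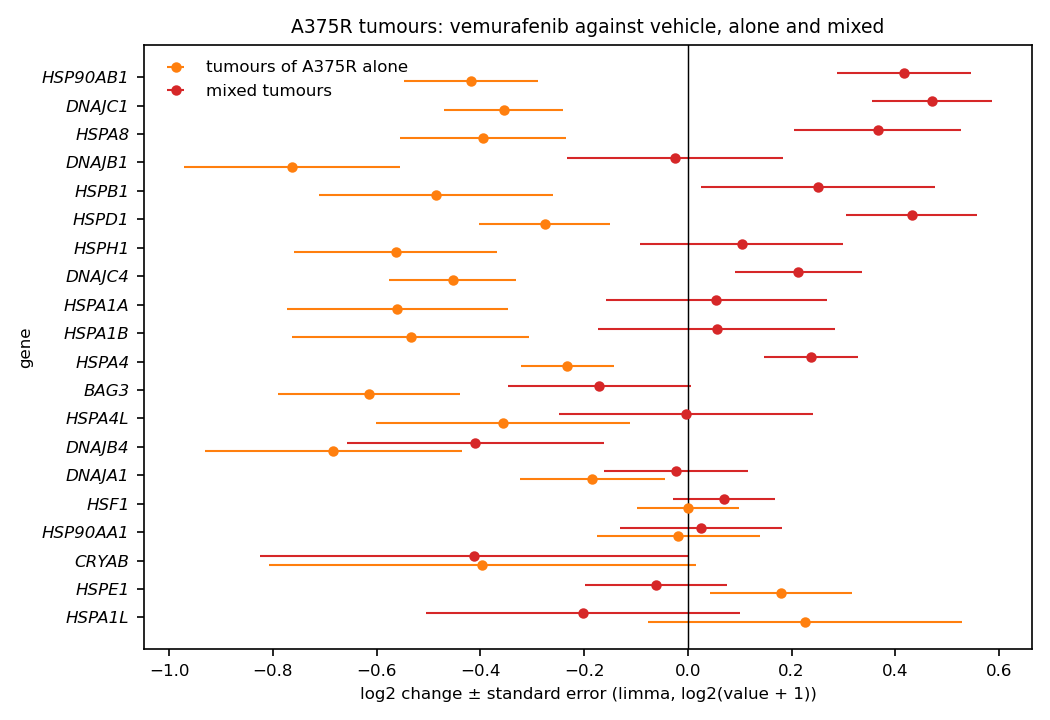
Log2 change on vemurafenib with its standard error (horizontal axis) for HSF1, 17 classical HSF1 targets, DNAJC1 and DNAJC4 (rows, ordered by the difference between the 2 kinds) in tumours of A375R alone (orange) and mixed tumours (red), n = 3 per group. DNAJC1 in mixed tumours is the 1 change plotted that passes the test, and HSP90AB1 lies at -0.42 in tumours of A375R alone and 0.42 in mixed tumours.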

How the data were processed

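RNA was sequenced from 41 samples in 15 groups, from libraries made with the TruSeq RNA v2 kit (per the labels). The deposited values are a signal: the authors divided read counts per gene by a size factor for each library, and the 6 tables were normalised separately. The builds hg19 and mm9 and the tools DESeq 1.18.0, HTSeq 0.5.4 and STAR 2.3.0e stand in the submitters' processing notes, with no role, and how mouse reads were treated is not stated there. In each library every value was a whole multiple of the worth of 1 read, to within 0.1 for 100% of values, which gave back the reads. Recovered depth was 8063754 to 42843612 reads per library, and deeper libraries have smaller counting error.

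Members and gene lists were chosen with earlier results of these data known. Within a table, limma 3.58.1 in R 4.3.3, with a mean-variance trend, was run on log2(value + 1), a scale that understates the change of low genes, for genes with a mean of at least 10 over its libraries. All groups of the table entered the fit, and the two-sided threshold was a Benjamini-Hochberg adjusted p under 0.05 over all genes tested. Members were counted beside all genes, with no test of a list. Named in every comparison are 13 genes (HSF1, HSPA1A, HSPA1B, HSPA8, HSPH1, HSP90AA1, HSP90AB1, HSPD1, HSPE1, HSPB1, CRYAB, DNAJB1 and BAG3), followed by up to 8 members per direction with the largest changes among those that passed without overlap of the groups. Some of these were left out, and genes that a count or a role calls for were added after their values were seen. Same-numbered replicates correlated in their deviations from the group means at 0.567, 0.310 and 0.566 between vehicle and 6 h of A375 culture and at 0.436, 0.197 and 0.410 between 6 h and 48 h, so the numbers pair these, and no other groups met that rule. The alternatives comprised edgeR 4.0.16 and DESeq2 1.42.0 on the recovered reads, leaving out each library, the replicate block, the 2 groups alone, quantile normalisation, pseudocounts of 0.5 and of 5, a filter at 50, and no filter. The procedure was tested on simulated data.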

Additional observations from a re-analysis of the deposited data

Results flagged for a closer look

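In A375 tumours, 50 sets of 4 values of named genes were examined for a library that stood apart, of which chance gives about 1 in 20, and 4 had one. After vemurafenib, replicate 1 stood apart for CRYAB, at 137 against 86.2 to 94.4 in the others, and for HSPA1A, at 173 against 133 to 136. After vemurafenib, replicate 3 stood apart for HSPD1, at 5159 against 4388 to 4431. With vehicle, replicate 3 stood apart for HSPB3, at 0.509 (1 read) against 0 in the others.

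In A375R tumours the effect of vemurafenib was more positive in mixed tumours than in tumours of A375R alone by 0.83 for DNAJC1, 0.67 for DNAJC4, 0.84 for HSP90AB1 and 0.71 for HSPD1 on the log2 scale, in a test of the difference. In A375 culture 36 of 71 members differed between the effects at 6 h and 48 h, which share vehicle libraries, against 39.3% of all genes. Across the 5 tables of drug-sensitive cells, 12 members were called in both directions, each call without overlap of the groups, and these differences were not tested. The like number over all genes was not counted, so the 12 cannot be set against a background. Of all genes, 46.1% (H3122) to 73.3% (Colo800) passed in a table. HSP90AB1 and its pseudogene HSP90AB3P were called in 5 tables, lower in the 4 cultures and higher in A375 tumours. DNAJB5 and DNAJC1 were called in 5 tables, higher in the 3 melanoma cultures and A375 tumours and lower in H3122. HSPB1 was called in 4 tables, higher in Colo800, UACC62 and A375 tumours and lower in H3122. DNAJC10, called in 4, was higher in A375 culture and H3122 and lower in Colo800 and UACC62, and DNAJC6, called in 4, was higher in UACC62 and lower in Colo800, H3122 and A375 tumours. BAG1, called in 3, was lower in A375 culture and higher in Colo800 and UACC62, and BAG6, called in 3, was higher in A375 tumours and lower in Colo800 and H3122. In 2 tables each, DNAJC12 was higher in H3122 and lower in A375 tumours, DNAJB6 higher in UACC62 and lower in Colo800, and DNAJC22 higher in A375 culture and lower in Colo800.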

How the results depend on the processing

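The number of members past the threshold stayed within 1.5 times the main count under every alternative in A375 culture at 48 h, between 48 h and 6 h, in Colo800 and in A375 tumours, where leaving out 1 library gave 35 to 44, 27 to 33, 45 to 47 and 43 to 47. Leaving out 1 library gave 27 to 56 in UACC62 and 21 to 35 in H3122, whose other alternatives stayed within that range of the main count; with 1 library left in a group, it is assumed to vary like the other group. In H3122 the replicate block gave 24 (38.5% of all genes) and numbers crossed after seeing the data 44 (61.1%). A375 culture at 6 h gave 7 with the replicate block (10.6% of all genes), 4 with DESeq2 (7.57%) and 1 to 4 without 1 library (2.24% to 4.64%). In A375R tumours alone the drug gave 3 with the replicate block (2.17% of all genes) and 7 with the 2 groups alone (3.85%). It gave 7 with DESeq2 and 0 to 2 without 1 library (0.00727% to 2.37% of all genes). In mixed tumours it gave 0 with the 2 groups alone (1.66% of all genes), 4 with DESeq2 and 0 to 4 without 1 library. Mixed against alone gave, with vehicle, 4 with DESeq2 and 0 to 2 without 1 library, and with vemurafenib 1 with DESeq2 and 0 to 0 without 1 library. The difference of the drug effects gave 1 with no filter (0.965% of all genes), 2 with quantile normalisation (2.17%), 7 with DESeq2 and 0 to 6 without 1 library. The replicate block moved no other count by over 1.5 times. A count given here without a share of all genes describes the setting and is no result about the members. Of single genes, HSPA8 in H3122 turned from -0.09 to 0.27 under quantile normalisation (adjusted p = 0.00813). The causes were not tested. Groups of 2 to 4 libraries and low counts (HSPA6, HSPB3, CRYAB in A375) limit precision.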
